A study of Glycine max with 36 samples.

Results

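The genes of the RNA silencing machinery of soybean (Glycine max) were followed as sources of small RNA hits in 36 small RNA libraries. They were chosen by words in the description deposited with each gene, taken from its best hit in Arabidopsis: argonaute, dicer-like, RNA-dependent RNA polymerase, XS domain-containing, and the description that the deposited table gives to the AGO1 and AGO10 hits (a SufD and polynucleotidyl transferase entry). This gave 66 of 52872 genes, of which 25 were Argonaute, 11 Dicer-like, 8 RNA-dependent RNA polymerase (RDR) and 22 XS domain genes. Hits were found for 63 of them. The AGO6 hit Glyma.15G231700, the DCL1 hit Glyma.11G170100 and the RDR1 hit Glyma.07G171400 had no hit in any library.

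The series asks where small RNAs of the chalcone synthase (CHS) genes, which set seed colour, occur among soybean tissues. The I locus carries an inverted CHS cluster, and its I and i-i alleles silence CHS in the seed coat while i does not. The 14 immature seed coat libraries came from Williams (i-i, 3 libraries of 100 to 200, 200 to 300 and 400 to 500 mg seeds), Clark 63 and Clark mi (both i-i, 50 to 100 mg), Williams 44 (i, 50 to 75 mg), Richland (I, 3 libraries of 5 to 6 mg and 1 of 10 to 25 mg) and T157 (i, 3 libraries of 5 to 6 mg and 1 of 10 to 25 mg). Williams (i-i) also gave 7 seedling cotyledon libraries, 1 for each of stages 1 to 7, and 2 embryo axes (200 to 300 and 300 to 400 mg seeds). Single Williams libraries came from the dry coat and dry cotyledon (both 100 to 200 mg), the immature cotyledon (200 to 300 mg) and the 10 day leaf. Clark (i-i) gave 3 vegetative buds of 5 to 7 week plants, 4 adult shoot tips and 2 shoot tips of 1 month plants. These came from the standard line and its five-foliate and glabrous forms. All plants were grown in a greenhouse and no treatment was named. Seed parts were separated by hand, so cells of a neighbouring tissue were not excluded by a sort. Libraries of a group are not labelled as separate plants, so p-values measure the spread between these libraries only.

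In plants, Dicer-like enzymes cut double-stranded RNA into small RNAs, and Argonaute proteins carry these to matching transcripts or chromatin. RNA-dependent RNA polymerases copy single-stranded RNA into the double-stranded substrate, helped by XS domain proteins such as SGS3. In Arabidopsis the transcripts of DCL1, AGO1 and AGO2 are themselves targets of microRNAs, so silencing genes are themselves regulated by small RNAs. The measurements below are small RNA hits on these genes and not levels of their messenger RNAs.

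The 66 genes took 442706 of 946088606 gene hits over all libraries (0.0468%). Libraries held 9.50 to 58.5 M reads (M is 1e+06), and 35 of them held 5.74 to 85.3 M gene hits. The stage 2 seedling cotyledon library held 0.965 M gene hits and was left out of the fits below. Levels are given in counts per 1e+06 gene hits (CPM), sense and antisense hits summed, and 3 hits correspond to 0.0352 to 0.523 CPM in the 35 libraries. In these libraries 45 to 59 of the 66 genes had hits, and their summed level was 96.0 to 844 CPM with a median of 364. As a check of the labels, CHS7 hits were 168 to 3645 CPM in the 9 immature seed coats with I or i-i. They were 8.40 to 29.5 CPM in the 5 with i and 0.576 to 5.92 CPM in 20 libraries of other tissues. The dry seed coat and the stage 2 library were left out of this check. Markers of tissues could not be read as transcript levels from small RNA hits. The 6 seed coats of 5 to 6 mg stood apart from the 8 larger ones on many of the genes, as given in detail below, and the counts of calls in tests that pool them with larger seed coats are also given without them.

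The classes differed in how many hits they drew and on which strand. Dicer-like genes took 38.2% of the hits of the 66 genes, Argonaute genes 31.2%, XS domain genes 28.8% and RDR genes 1.81%. Antisense hits made up 85.1% of the Dicer-like, 65.0% of the RDR, 38.3% of the Argonaute and 12.4% of the XS domain hits, pooled over libraries. In these shares and in the counts of this paragraph, copies that may share reads were counted separately. The sense-rich AGO10 pair Glyma.05G011300 and Glyma.17G119400 took 7.11% and 7.12% of the hits of the 66 genes. The antisense-rich DCL1 pair Glyma.03G262100 and Glyma.19G261200 took 11.6% and 11.5%. The shares of these classes depend on these pairs. The order of the classes differed between tissues: Argonaute genes summed to 141.2 to 326 CPM and Dicer-like genes to 46.4 to 72.2 CPM in the seed coats of 5 to 6 mg, against 41.2 to 195 and 160 to 231 CPM in the 8 larger ones. Among genes with at least 1000 hits, 19 of 34 members (55.9%) lay between 10 and 90% antisense, against 31.3% of all 11043 such genes. The share at 90% or more was 20.6% of the members and 32.6% of all genes, and the median antisense share was 54.2% against 43.9%.

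**Figure D1:**
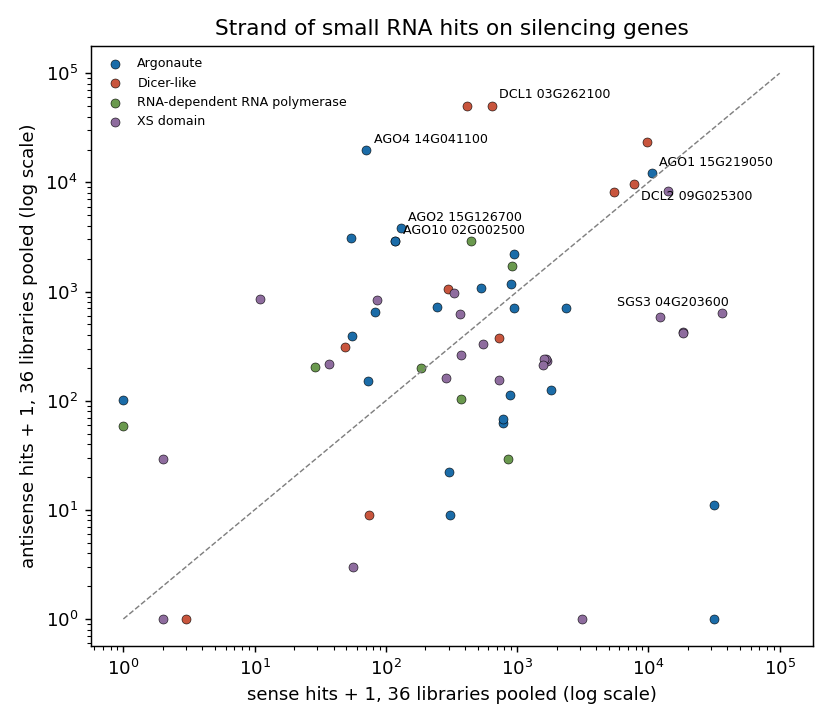
Sense hits (x axis) against antisense hits (y axis) of each gene with a hit, 36 libraries pooled, both axes as hits + 1 on log scales; colours mark the classes and the dashed line marks equal strands. DCL1 Glyma.03G262100 and AGO4 Glyma.14G041100 lie far above the line, SGS3 Glyma.04G203600 lies far below it, and AGO1 Glyma.15G219050 and DCL2 Glyma.09G025300 lie near it.

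The DCL1 hits Glyma.03G262100 and Glyma.19G261200, whose Arabidopsis counterpart cuts microRNAs out of hairpin transcripts, were almost wholly antisense. Their antisense shares were 98.7% of 51194 hits and 99.2% of 50738 hits. The totals of the pair were nearly equal, so reads may be shared between these copies and their values are not independent. The AGO2 hits Glyma.15G126700 and Glyma.20G022900, whose Arabidopsis counterpart acts in antiviral defence, were 96.7% and 98.3% antisense. The AGO4 hit Glyma.14G041100, whose counterpart guides DNA methylation in Arabidopsis, was 99.6% antisense over 19753 hits.

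Sense hits prevailed on other genes. The AGO10 hits Glyma.05G011300 and Glyma.17G119400 (AGO10 acts in shoot meristem upkeep in Arabidopsis) had 0 antisense among 31468 hits and 10 among 31518. Their counts by library and strand also lay within 1.93% of those of Glyma.02G305800, described as a fasciclin-like arabinogalactan gene. The origin of these hits is therefore uncertain. A second AGO10 pair, Glyma.02G002500 and Glyma.10G002700, had the same 3022 hits each and was 96.1% antisense. The SGS3 hit Glyma.04G203600 was 1.70% antisense and the AT1G13790 hits Glyma.15G037800 and Glyma.13G336500, XH/XS domain genes with nearly equal totals (18852 and 18740 hits), were 2.27% and 2.22% antisense. The RDR1 hit Glyma.02G086100, whose Arabidopsis counterpart responds to viruses, was 3.16% antisense.

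Other members carried both strands in quantity. The AGO1 hit Glyma.15G219050, the main microRNA effector in Arabidopsis, was 53.0% antisense over 22752 hits, and its share ran from 19.3 to 72.2% across libraries with at least 30 hits. The DCL2 hits Glyma.09G025300 and Glyma.09G025400 were 55.5% and 59.7% antisense, and the DCL4 hit Glyma.13G156500 was 70.8%. DCL2 and DCL4 cut long double-stranded RNA into small interfering RNAs in Arabidopsis. The SGS3 hit Glyma.05G198500 was 37.5% antisense and the RDR6 hit Glyma.04G067300 was 64.9%. The deposited counts are not split by read length, so microRNAs, small interfering RNAs and any fragments of messenger RNA cannot be told apart in them.

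Levels spanned a wide range among the members. Per kilobase of cDNA and averaged over 35 libraries, AGO1 Glyma.15G219050 led with 22.1 CPM per kb, followed by SGS3 Glyma.04G203600 at 13.1 CPM per kb and SGS3 Glyma.15G175600, with a cDNA of 285 bases in the deposited table, at 8.11 CPM per kb. Among the others, SGS3 Glyma.05G198500 had 7.01, AGO10 Glyma.17G119400 6.45, DCL1 Glyma.03G262100 6.29 and the AT1G13790 hit Glyma.15G037800 6.02 CPM per kb. DCL4 Glyma.13G156500 had 3.63 and DCL2 Glyma.09G025300 had 3.29 CPM per kb. The RDR genes were lower, with 1.07 CPM per kb for RDR6 Glyma.04G067300, 0.737 for RDR2 Glyma.05G035900 and 0.369 for RDR1 Glyma.02G086100.

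**Figure D2:**
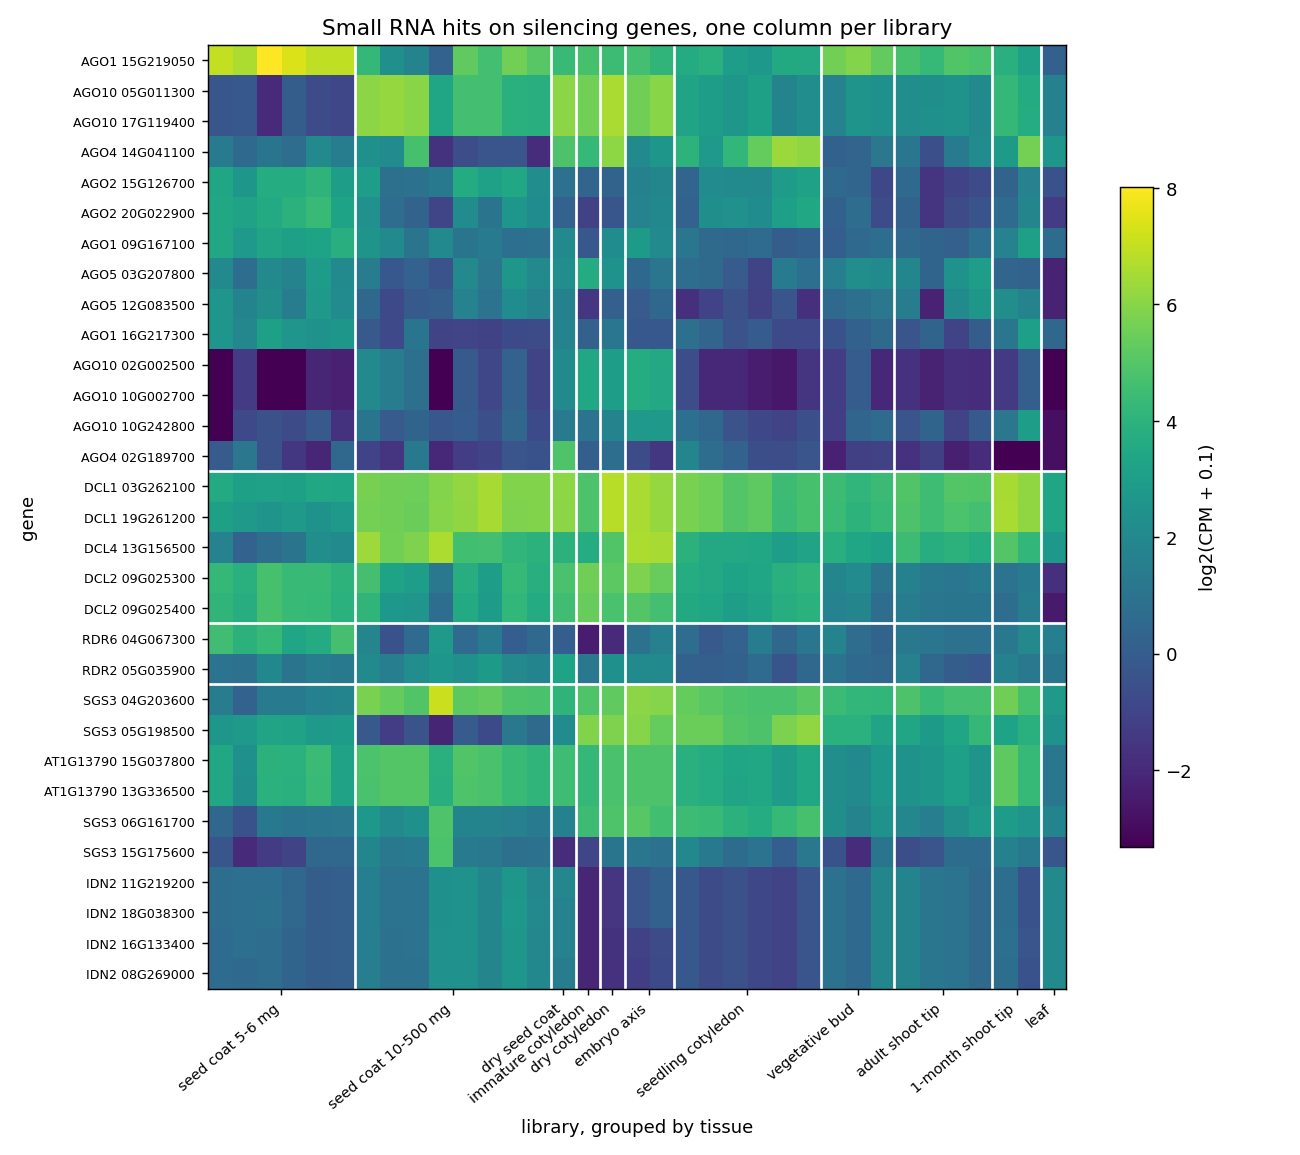
Heat map of log2(CPM + 0.1) for members with a mean of at least 1.5 CPM (rows, grouped by class) in 35 libraries (columns, grouped by tissue). The 6 seed coats of 5 to 6 mg at the left are bright for AGO1 Glyma.15G219050 and RDR6 Glyma.04G067300 and dark for the AGO10 pair, DCL4 and SGS3 Glyma.04G203600, where the larger seed coats show the reverse.

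The dry cotyledon and the embryo axes held the highest summed levels. Over all members the dry cotyledon had 844 CPM, the embryo axes 724 and 806 CPM, the dry seed coat 571 CPM and the immature cotyledon 507 CPM, while the leaf had 96.0 CPM, the lowest of the 35 libraries. The 14 immature seed coats ran from 246 to 575 CPM, and the 2 1-month shoot tips held 419 and 469 CPM. Dicer-like genes summed to 314 and 383 CPM in the embryo axes and 320 CPM in the dry cotyledon, against 46.4 to 231 CPM in immature seed coats, 165 and 225 CPM in the 1-month shoot tips, 51.6 to 64.4 CPM in the 3 vegetative buds and 27.9 CPM in the leaf. In whole tissue samples, fewer cells of a type and less RNA per cell cannot be told apart.

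Single genes peaked in different tissues. DCL4 Glyma.13G156500 reached 94.0 and 99.7 CPM in the embryo axes and 97.7 CPM in the Williams 44 seed coat, and no other library exceeded 81.6 CPM. AGO4 Glyma.14G041100 was highest in seedling cotyledons of stages 6 and 7 (78.6 and 70.3 CPM) and in the dry cotyledon (68 CPM), with 50.8 CPM in the glabrous 1-month shoot tip. In the 14 immature seed coats this gene ran from 0.177 to 26.6 CPM. SGS3 Glyma.05G198500 held 28.7 to 69.6 CPM in 6 seedling cotyledons and 40.2 to 63.0 CPM in the 4 embryo and cotyledon libraries of seeds, but 0.128 to 9.83 CPM in immature seed coats. A second SGS3 copy on another chromosome, Glyma.04G203600, did not share this pattern and held 26.7 to 40.8 CPM in seedling cotyledons and 27.0 to 137.3 CPM in the 8 larger seed coats.

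**Figure D3:**
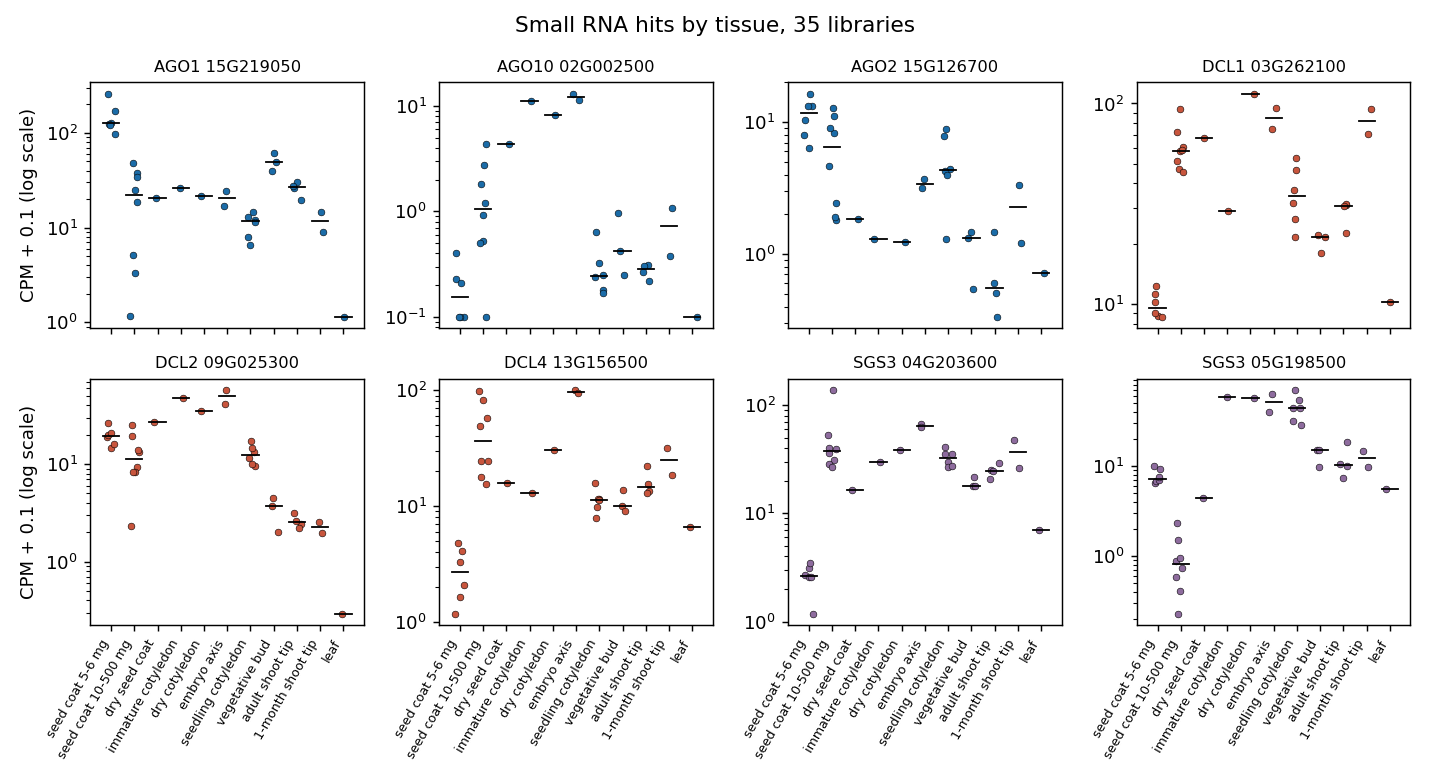
CPM + 0.1 on a log axis for 8 members in 11 tissue groups, 1 point per library (35 libraries) with a bar at the group median. AGO1 Glyma.15G219050 is highest in the 5 to 6 mg seed coats, SGS3 Glyma.05G198500 in cotyledons and embryo axes, and DCL1 Glyma.03G262100 and DCL4 Glyma.13G156500 are low in the 5 to 6 mg seed coats.

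In CPM, the youngest seed coats differed from all larger immature ones on 22 members. AGO1, RDR6, RDR1 and 1 of the AGO2 hits were high there, while DCL1, DCL4, the sense-rich AGO10 pair and SGS3 Glyma.04G203600 were low. This division by seed weight was noticed in the data and is given without a test. Of the 56 members with at least 30 hits in seed coats, 9 (16.1%) lay above and 13 (23.2%) below all 8 larger seed coats in each of the 6 small ones, against 21.5% and 12.0% of 29411 genes. Copies that may share reads, such as the sense-rich AGO10 pair, were counted separately.

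AGO1 Glyma.15G219050 ran from 98.1 to 260 CPM (median 125) in the 6 small seed coats and from 1.08 to 48.1 CPM (median 21.7) in the 8 larger ones. RDR6 Glyma.04G067300, which makes double-stranded RNA for secondary small interfering RNAs in Arabidopsis, ran from 9.97 to 25.4 CPM (median 17.5) against 0.622 to 6.73 CPM (median 1.45). RDR1 Glyma.02G086100 ran from 3.38 to 6.62 CPM against 0.156 to 1.51 CPM. In these 3 genes the lowest small seed coat lay above the highest larger one in CPM, which is scaled to gene hits and not to reads. AGO2 Glyma.20G022900 (9.24 to 20.8 against 0.419 to 6.20 CPM) and SGS3 Glyma.05G198500 (6.38 to 9.83 against 0.128 to 2.24 CPM) were also above without overlap. The small seed coats held fewer gene hits per read. Richland 5 to 6 mg replicate 2 had 6.49 M gene hits from 12.8 M reads, and Clark 63 had 43.9 M from 23.8 M. AGO1 Glyma.15G219050 had 637 hits in the former and 1667 in the latter, so its levels per read overlapped between the groups. Levels per read of the other genes were not computed.

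The AGO10 hits Glyma.05G011300 and Glyma.17G119400 went the other way, at 0.154 to 0.918 CPM in the small and 10.2 to 73.9 CPM in the larger seed coats. DCL1 Glyma.03G262100 ran from 8.53 to 12.2 CPM against 45.5 to 94.1 CPM, and DCL4 Glyma.13G156500 from 1.08 to 4.73 CPM against 15.5 to 97.7 CPM. SGS3 Glyma.04G203600 ran from 1.08 to 3.37 CPM against 27.0 to 137.3 CPM. For all of them the groups did not overlap. Of the 4 class sums 3 did not overlap: RDR genes summed to 20.1 to 36 CPM in the small and 4.12 to 15.5 CPM in the larger seed coats, Dicer-like genes to 46.4 to 72.2 against 160 to 231 CPM, and XS domain genes to 29.9 to 65.8 against 87.5 to 247 CPM. The Argonaute sum (141.2 to 326 against 41.2 to 195 CPM) and the sum of all members (246 to 488 against 344 to 575 CPM) overlapped.

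The small seed coats were also less deeply sampled, with 6.49 to 9.21 M gene hits against 12.9 to 85.3 M, and they came from Richland and T157 only. Within these lines the 6 libraries of 5 to 6 mg were fitted against the 2 of 10 to 25 mg with line as a term, a comparison added after the data were seen. The 2 larger libraries held 22.6 and 27.3 M gene hits. The part of depth, library kit and sequencer, which the labels do not give per library, in the results that follow was not tested.

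In that fit 78.2% of 13868 genes passed the threshold (edgeR quasi-likelihood test, Benjamini-Hochberg adjusted p under 0.05 over all genes tested), and 26 of 35 members tested did, 8 higher and 18 lower in the small seed coats. Over all genes 43.3% were higher and 34.9% lower. The median log2 change of the members was -0.79, against 0.48 over all genes. Of 5 RDR genes tested 3 rose and 1 fell, of 12 Argonaute genes 4 rose and 4 fell, of 6 Dicer-like genes 4 fell, and of 12 XS domain genes 1 rose and 9 fell. Genes that may share reads were counted separately. The split depends on scaling: without TMM factors 11 rose and 12 fell (77.6% of genes called) with a median of all genes of 1.37, and with DESeq2 5 rose and 21 fell (69.2% of genes called) with a median of 0.05.

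Among the genes that rose, RDR1 Glyma.02G086100 held 0.220 and 0.397 CPM in the 10 to 25 mg libraries and was higher by 3.15 ± 0.54 on the log2 scale (SE, n = 6 and 2; edgeR adjusted p = 3.95e-06). RDR6 Glyma.04G067300 held 0.954 and 1.37 CPM there and rose by 2.98 ± 0.46 (edgeR adjusted p = 7.43e-07). AGO1 Glyma.16G217300 rose by 2.64 ± 0.47, the RDR2 hit Glyma.17G091500 by 2.49, AGO1 Glyma.09G167100 by 1.60 and AGO4 Glyma.14G041100 by 1.53. Of these, Glyma.17G091500 (1.37) and Glyma.09G167100 (1.12) lost their calls without the Richland 10 to 25 mg library, and Glyma.14G041100 without that of T157 (0.60) and with DESeq2 (1.11). AGO1 Glyma.15G219050, at 34.1 and 48.1 CPM in the 10 to 25 mg libraries, rose by 0.98 ± 0.36 (edgeR adjusted p = 0.0141). This call was lost with DESeq2 (0.55), without either 10 to 25 mg library (0.62 and 0.85) and without T157 5 to 6 mg replicate 1 (0.64). SGS3 Glyma.05G198500 rose by 1.22 ± 0.39 (edgeR adjusted p = 0.00591), and was also lost with DESeq2 (0.80) and without either 10 to 25 mg library (1.05 and 0.91).

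The largest falls exceeded the largest rises. The AGO10 pair Glyma.05G011300 and Glyma.17G119400, at 14.2 and 14.6 CPM in the 10 to 25 mg libraries for the former, fell by 5.49 ± 0.39 on the log2 scale (edgeR adjusted p = 3.36e-14). SGS3 Glyma.04G203600, the partner of RDR6 in Arabidopsis, held 27.0 and 28.5 CPM there and fell by 4.40 ± 0.32 (edgeR adjusted p = 3.13e-14). DCL1 Glyma.19G261200 and Glyma.03G262100 fell by 4.00 ± 0.31 and 3.46 ± 0.29, and DCL4 Glyma.13G156500 fell by 3.57 ± 0.34 (edgeR adjusted p = 2.95e-11). The IDN2 hits Glyma.11G219200, Glyma.18G038300, Glyma.16G133400 and Glyma.08G269000, 4 of 7 in the family, fell by 2.74 to 2.87. They form 2 pairs with nearly equal counts (1917 and 1905, 1848 and 1794 hits), and counts were also close between the pairs. Reads may be shared among all 4, so their values are not independent. IDN2 binds RNA in the DNA methylation pathway of Arabidopsis.

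Strand resolved part of this contrast. RDR6 Glyma.04G067300 had 620 sense hits in the 6 small seed coats (8.40 to 19.9 CPM, median 13.4) and 0 in both 10 to 25 mg libraries, at least 233-fold higher against a floor of 3 hits over that group. Its antisense level was higher by 0.69 on the log2 scale, which did not pass the threshold (edgeR adjusted p = 0.221). RDR2 Glyma.05G035900, which makes double-stranded RNA for DNA methylation in Arabidopsis, rose by 3.39 ± 0.70 in sense hits (edgeR adjusted p = 5.18e-05) and fell by 4.03 ± 0.48 in antisense hits (edgeR adjusted p = 1.59e-08). Floors and counting intervals cover counting error only.

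Across tissues the sense hits of RDR6 Glyma.04G067300 stayed at or below 0.164 CPM in the 8 larger seed coats and at or below 0.0334 CPM in the 4 embryo and cotyledon libraries of seeds. They reached 0.175 to 1.75 CPM in the 6 seedling cotyledons and 0 to 2.59 CPM in the 9 buds and tips. Its antisense hits were present in all groups, from 0.049 to 6.56 CPM. SGS3 Glyma.04G203600 showed an uneven antisense signal: 4 of its 628 antisense hits came from the 14 immature seed coats, which held 2 each in the small and the larger libraries. The 6 seedling cotyledons held 243 antisense hits (0.746 to 2.85 CPM) and the 4 embryo and cotyledon libraries of seeds 310 (1.23 to 2.10 CPM).

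**Figure D4:**
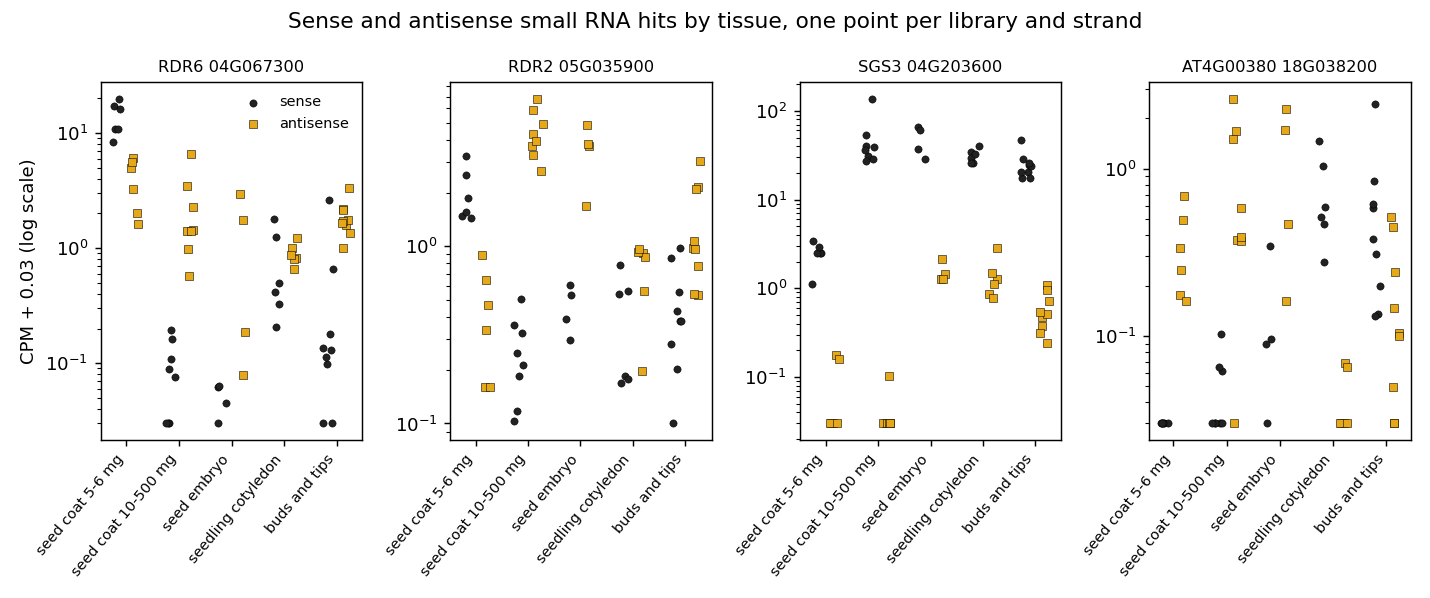
Sense (dark circles) and antisense (yellow squares) CPM + 0.03 on log axes for 4 members in 5 tissue groups, 1 point per library and strand; points at 0.03 are libraries with 0 hits. RDR6 sense hits reach 8.40 to 19.9 CPM in the 5 to 6 mg seed coats only among these groups, and SGS3 Glyma.04G203600 antisense hits are near 0 in both seed coat groups.

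Williams immature seed coats (3 libraries) were compared with Williams seedling cotyledons (6 libraries, stages 1 and 3 to 7), which asks how small RNAs differ between tissues of 1 cultivar. DCL3, DCL4, AGO7, the AGO10 pairs with Glyma.05G011300 and Glyma.02G002500 and 9 of 16 XS domain genes were higher in the seed coat, and SGS3 Glyma.05G198500 and the AGO10 hits Glyma.06G213300 and Glyma.04G150900 were higher in the cotyledon. By the edgeR test 55.7% of 16878 genes passed, and 27 of 46 members tested did, 18 higher and 9 lower in the seed coat, where 28.7% of genes were higher and 27.0% lower. Argonaute genes split 5 higher and 4 lower of 19, Dicer-like genes 3 and 1 of 8, RDR genes 1 and 0 of 3 and XS domain genes 9 and 4 of 16. Genes that may share reads were counted separately. The median log2 change was -0.15 for members and 0.05 for all genes. Without TMM factors the median of all genes was 0.73 and the members split 20 to 5 (59.6% of genes called). With the stage 2 library included 13 members were called, 8 higher and 5 lower (47.4% of genes called).

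AGO10 Glyma.05G011300 held 64.6, 65.8 and 73.9 CPM in the seed coats and 3.26 to 9.73 CPM (median 7.15) in the cotyledons. It was higher in the seed coat by 2.75 ± 0.33 on the log2 scale (edgeR adjusted p = 4.91e-05), and Glyma.17G119400 by 2.73 ± 0.33. The identical AGO10 pair Glyma.02G002500 and Glyma.10G002700 held 1.70, 2.64 and 4.25 CPM against 0.0673 to 0.541 CPM and was higher by 3.15 ± 0.53 (edgeR adjusted p = 3.98e-04). Groups did not overlap for these 4 genes. The AGO7 hit Glyma.02G111600, whose counterpart starts trans-acting small interfering RNA production in Arabidopsis, had 267 hits in the seed coats (1.32, 2.03 and 2.44 CPM) and 1 in the cotyledons. The ratio of its levels was 339 (exact 95% counting interval 60.4 to 13450; edgeR adjusted p = 2.37e-05).

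Among Dicer-like genes, DCL4 Glyma.13G156500 held 49.0, 57.2 and 81.6 CPM in the seed coats and 7.77 to 15.6 CPM (median 11.3) in the cotyledons, higher by 1.82 ± 0.27 (edgeR adjusted p = 1.75e-04). The other DCL4 hit, Glyma.17G104100, had 84 hits against 1, a ratio of 107 (exact 95% counting interval 18.6 to 4265; edgeR adjusted p = 1.80e-04). DCL3 Glyma.04G057400, which makes the small RNAs of DNA methylation in Arabidopsis, held 1.63, 3.42 and 3.87 CPM against 0 to 0.244 CPM and was higher by 3.93 ± 0.63 (edgeR adjusted p = 2.95e-04). These 3 genes did not overlap between the tissues. The DCL1 pair did not pass, with log2 changes of -0.20 and -0.22 (edgeR adjusted p = 0.588 and 0.556).

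RDR2 Glyma.05G035900 held 2.80, 4.15 and 4.61 CPM against 0.673 to 1.46 CPM and was higher by 1.20 ± 0.36 (edgeR adjusted p = 0.0125). It was the 1 RDR gene to pass, and its call was lost without the Williams seed coat of 200 to 300 mg (0.91, edgeR adjusted p = 0.0678). Among XS domain genes the AT1G15910 hit Glyma.07G024100 was higher by 2.46 ± 0.70 (edgeR adjusted p = 0.00996). The AT1G13790 pair held 27.7, 31.4 and 31.5 CPM for Glyma.15G037800 against 7.70 to 14.5 CPM, higher by 0.83 ± 0.29 (edgeR adjusted p = 0.0290). That call was lost without the seed coat of 400 to 500 mg (0.72) or that of 200 to 300 mg (0.70).

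SGS3 Glyma.05G198500 had the largest fall of the members, from 28.7 to 69.6 CPM (median 44.4) in the cotyledons to 0.311, 0.645 and 0.792 CPM in the seed coats, or by 6.94 ± 0.57 on the log2 scale (edgeR adjusted p = 8.64e-06). SGS3 Glyma.06G161700 held 4.12, 5.14 and 6.50 CPM in the seed coats against 13 to 25.9 CPM and fell by 2.57 ± 0.37 (edgeR adjusted p = 1.58e-04). SGS3 Glyma.15G048400 fell by 3.79 ± 0.52. SGS3 Glyma.04G203600 did not pass, with a change of -0.33 (edgeR adjusted p = 0.332), so copies with the same best hit gave different calls. The AGO10 hits Glyma.06G213300 and Glyma.04G150900 fell by 5.88 ± 1.46 and 5.36 ± 1.17, with cotyledon levels that ran from 0 to 3.86 CPM for the former and 0.116 to 3.86 CPM for the latter. Both had 780 sense hits over all libraries (842 and 847 hits in all), so reads may be shared and their values are not independent. AGO2 Glyma.20G022900 fell by 2.03 ± 0.70, IDN2 Glyma.02G248400 by 2.16 ± 0.84 and AGO4 Glyma.06G314500 by 1.40 ± 0.53, with overlapping groups. The calls of these last 3 genes were each lost on leaving out at least 1 Williams seed coat.

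Fitting the strands apart gave calls that the sum hid. In antisense hits 11 members were higher and 9 lower of 30 tested (59.3% of all genes passed), and in sense hits 10 were higher and 9 lower of 31 (58.0% of all genes passed). Of 15 members tested on both strands, 7 had log2 changes of opposite sign, whether or not each passed the threshold. The same count was not made over all genes, so it does not set the members apart. The AT4G00380 hit Glyma.18G038200, an XH/XS domain gene, had 242 antisense hits in the seed coats and 2 in the cotyledons, a ratio of 154 (exact 95% counting interval 42.1 to 1277; edgeR adjusted p = 4.19e-05). Its sense hits went from 119 in the cotyledons to 4 in the seed coats, a fall of 4.94 ± 0.79 on the log2 scale (edgeR adjusted p = 2.83e-04). The sum of both strands, at 0.80 ± 0.48, did not pass (edgeR adjusted p = 0.168).

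SGS3 genes also differed by strand. Glyma.04G203600 had 0 antisense hits in the Williams seed coats and 243 in the cotyledons, at least 63.7-fold lower in the seed coat with a floor of 3 hits over the group (edgeR adjusted p = 8.59e-05). Glyma.06G161700 had 0 antisense hits against 222, at least 58.2-fold lower (edgeR adjusted p = 7.56e-05), and its sense hits fell by 2.44. Antisense hits of both genes were close in each library and numbered 628 and 579 over all libraries. Reads may be shared between these copies, so their antisense values are not independent. RDR6 Glyma.04G067300 fell by 4.46 ± 1.05 in sense hits (edgeR adjusted p = 0.00305) while its antisense change was 0.07. DCL4 Glyma.13G156500 was higher on both strands, by 3.27 in sense and 1.29 in antisense hits.

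**Figure D5:**
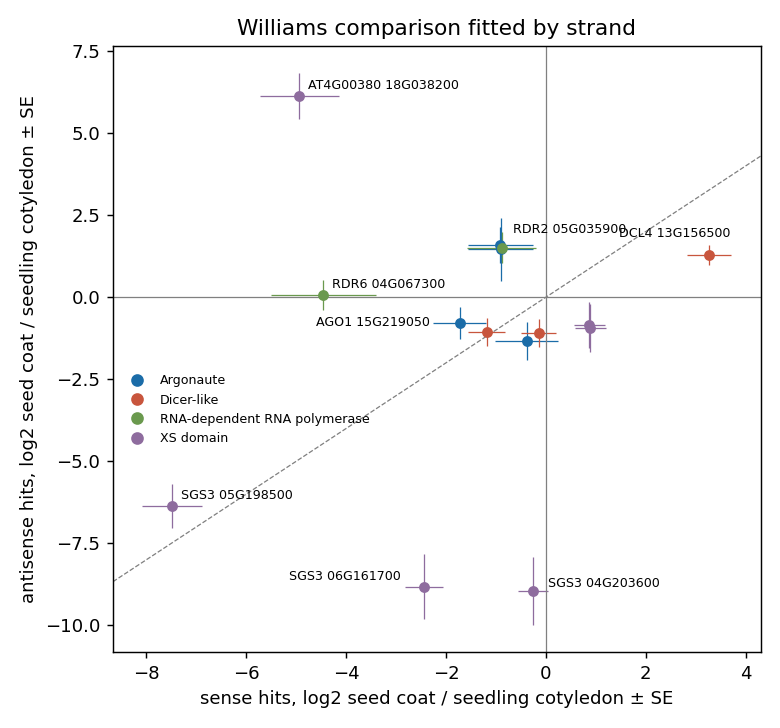
Log2 change of sense hits (x axis) and antisense hits (y axis), Williams seed coat over seedling cotyledon, with SE bars, for 15 members tested on both strands; colours mark the classes and the dashed line marks equal change. Glyma.18G038200 lies in the upper left quadrant, higher in antisense and lower in sense hits, and SGS3 Glyma.05G198500 lies at the lower left; the antisense values of Glyma.04G203600 and Glyma.06G161700, with 0 hits in the seed coats, are fitted values that depend on the prior count.

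All 14 immature seed coats were next compared with the 9 Clark buds and shoot tips, which differ in line as well as tissue. DCL2 and AGO2 hits were higher in seed coats, and SGS3 Glyma.05G198500 was lower. The test passed 23.2% of 11991 genes and 8 of 34 members, 6 higher and 2 lower in the seed coats (15.3% and 7.96% of genes). Median log2 changes were 0.62 for the members and 0.14 for all genes. These seed coats include those of the 2 comparisons above, so the results share libraries. Without TMM factors the members split 9 to 1 (26.4% of genes called), with a median of all genes of 0.49.

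DCL2 Glyma.09G025300 ran from 2.22 to 26.4 CPM (median 15.2) in seed coats and from 1.89 to 4.36 CPM (median 2.43) in buds and tips. It was higher by 2.01 ± 0.38 on the log2 scale (edgeR adjusted p = 3.52e-04), and its neighbour Glyma.09G025400 by 2.02 ± 0.39 (edgeR adjusted p = 3.95e-04). Sense hits of these neighbours were nearly equal in the buds and tips. Reads may be shared between them, so both values are not independent. AGO2 Glyma.15G126700 ran from 1.71 to 16.4 CPM (median 8.55) against 0.233 to 3.21 CPM (median 1.12), higher by 2.40 ± 0.46 (edgeR adjusted p = 3.41e-04). The groups overlapped for all 8 members called. AGO2 Glyma.20G022900 was higher by 2.05 ± 0.53, AGO5 Glyma.11G190900 by 3.05 ± 0.76 and IDN2 Glyma.14G068100 by 1.87 ± 0.47. AGO5 acts in germ cells in Arabidopsis.

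SGS3 Glyma.05G198500 ran from 0.128 to 9.83 CPM (median 1.83) in seed coats against 7.22 to 18.6 CPM (median 10.5) in buds and tips, a log2 change of -2.34 ± 0.53 (edgeR adjusted p = 0.00192). AGO10 Glyma.10G242800 had a change of -1.49 ± 0.54 (edgeR adjusted p = 0.0444), lost without the small seed coats (-0.89) and without the 1-month tips (-0.29). Its sense hits were close to those of AGO10 Glyma.20G151400 and of AGO1 Glyma.09G167100 and Glyma.16G217300. In the glabrous 1-month tip they were 406, 407, 412 and 410. Reads may be shared among these AGO10 and AGO1 genes, so this change may not belong to Glyma.10G242800 alone. Without the 6 small seed coats 13 members were higher and 2 lower of 31, where 45.7% of all genes passed. DCL2, AGO2 and Glyma.05G198500 kept their calls there, at 2.11 and 2.01 for the DCL2 genes, 2.40 and 1.36 for the AGO2 genes and -3.89 for Glyma.05G198500. AGO5 Glyma.11G190900 and IDN2 Glyma.14G068100 did not pass the filter on low counts in that set. Without the 1-month tips 11 were higher and 1 lower of 34, where 30.8% of all genes passed. By strand, 6 of 16 members were higher in antisense hits and 0 lower (20.3% of genes called), and in sense hits 2 of 20 were higher and 1 lower (23.3% of genes called). Without the small seed coats these counts were 6 higher and 1 lower of 15 in antisense hits (47.0% of genes called) and 9 higher and 1 lower of 19 in sense hits (42.0% of genes called). The antisense change of AGO1 Glyma.15G219050 was 1.92 with the small seed coats and -0.09 without them.

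The alleles of the I locus were compared at equal seed weight, Richland (I) against T157 (i) at 5 to 6 mg with 3 libraries each. None of 29 members passed in either direction by edgeR, none had an unadjusted p under 0.05, and DESeq2 also called 0, while 1.12% of 10761 genes passed. The lowest p belonged to DCL4 Glyma.13G156500, with 1.08, 1.54 and 3.19 CPM in Richland and 1.97, 4.02 and 4.73 CPM in T157, a log2 change of -0.80 ± 0.46 (edgeR adjusted p = 0.745). Its groups overlapped. AGO1 Glyma.15G219050 held 98.1, 128 and 260 CPM in Richland and 121.9, 122.6 and 172.1 CPM in T157, and the groups overlapped too. The median change was 0.08 for members and -0.01 for all genes. A p above the threshold does not show that the lines were alike.

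Over all 14 immature seed coats, 9 with I or i-i against 5 with i, none of 45 members passed by edgeR, and 4 had an unadjusted p under 0.05. DESeq2 called 0, with 7 at an unadjusted p under 0.05, and 0.208% of 17303 genes passed by edgeR. The lowest p was that of the XH/XS domain gene Glyma.18G038200 (a log2 change of 2.43 ± 0.96, edgeR adjusted p = 1.000). Line and seed weight differ between these groups, and 6 libraries are those of the Richland and T157 comparison. Without the 6 small seed coats none of 50 members and 0 of 20817 genes passed. CHS7 hits did not overlap between the same 9 and 5 libraries in the label check above.

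Over seedling cotyledon stages 1 and 3 to 7, with 1 library per stage, no gene passed a test for a linear trend by edgeR (0% of 14406, with 2981 genes at an unadjusted p under 0.05). Of 42 members tested 13 had an unadjusted p under 0.05. AGO10 Glyma.04G150900 had the lowest p, with a slope of 0.86 ± 0.21 on the log2 scale per stage (edgeR adjusted p = 0.0855). DESeq2 called 5 members rising and 1 falling, with 9.05% of genes called. With stage 2 included edgeR called 2 members, AGO10 Glyma.04G150900 and Glyma.06G213300, the pair that may share reads, and 3.51% of genes. The 5 rising in DESeq2 were AGO10 Glyma.04G150900 and Glyma.06G213300, AGO4 Glyma.14G041100 and AGO2 Glyma.15G126700 and Glyma.20G022900. AGO4 Glyma.14G041100 held 15.9 CPM at stage 1, 6.84 at stage 3, 18.1 at stage 4, 40.9 at stage 5, 78.6 at stage 6 and 70.3 CPM at stage 7. DCL1 Glyma.03G262100 held 53.4 CPM at stage 1 and 21.6 and 26.6 CPM at stages 6 and 7.

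Among the 9 Clark libraries, fitted together with terms for line and tissue, vegetative buds (3) were set against adult shoot tips (4). The buds came from plants of 5 to 7 weeks, so organ and plant age cannot be told apart. AGO1 Glyma.15G219050 held 39.5, 49.3 and 60.8 CPM in the buds and 19.6, 26.0, 27.3 and 30.2 CPM in the tips, with no overlap. Its change of 1.03 ± 0.26 on the log2 scale lay just outside the threshold (edgeR adjusted p = 0.0547), where 2.46% of 14015 genes passed and 0 of 39 members did. It was the 1 member with an unadjusted p under 0.05, and it was called with DESeq2 (4.15% of genes called) and in sense hits (1.01 ± 0.24, edgeR adjusted p = 0.0378). It was also called in unique hits, which made up 99.8% of its hits, so that fit nearly repeats the main one. With each of the 9 libraries left out in turn, it was called without the glabrous bud or the second standard adult tip. All these fits reuse the same libraries and are not independent of the main fit. For five-foliate and for glabrous against standard, with 3 libraries each, edgeR called 0 of 39 members and 0% of genes. At an unadjusted p under 0.05 were 4 and 5 members and 845 and 2404 genes, and DESeq2 called 0 members with 3 and 16 genes.

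Embryo tissues of the seed (dry cotyledon, immature cotyledon and 2 embryo axes, 4 libraries of unlike tissue) were set beside the 6 seedling cotyledons as a description. Of 55 members with at least 30 hits, 18 (32.7%) lay above all seedling libraries in each of the 4, and 1 (1.82%) below, against 23.2% and 8.72% of 26684 genes. Copies that may share reads were counted separately. The 18 include each copy of the AGO10 pairs with Glyma.05G011300 and Glyma.02G002500 and of the AT1G13790 pair, so the share of the members is not made of independent genes. AGO10 Glyma.05G011300 ran from 46.7 to 96.7 CPM against 3.26 to 9.73 CPM, and the AGO10 pair with Glyma.02G002500 from 8.12 to 13 CPM against 0.0673 to 0.541 CPM. DCL2 Glyma.09G025300 ran from 35.3 to 57.0 CPM against 9.45 to 17.1 CPM. The 1 member below was RDR6 Glyma.06G068900, at 0.0163 to 0.126 CPM against 0.135 to 0.454 CPM.

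Another 61 genes of the pathway, outside the 66, were chosen by words in their descriptions. In Williams seed coats against seedling cotyledons 5 of 19 tested were higher and 2 lower, where 55.7% of all genes passed. The higher ones included NRPE1, the large subunit of RNA polymerase V (Glyma.15G235900, 1.94 ± 0.43), and chromomethylase 3 (Glyma.11G083600, 1.87 ± 0.56). In seed coats against buds and tips 5 of 15 were higher and 1 lower, where 23.2% of all genes passed, led by the RNA polymerase IV subunit hits Glyma.01G215700 (3.75 ± 0.84) and Glyma.11G026700 (3.33 ± 0.68). In Richland and T157 seed coats of 5 to 6 against 10 to 25 mg 8 of 17 were higher and 6 lower, where 78.2% of all genes passed. Chromomethylase 2 Glyma.16G103500 ran from 61.6 to 223 CPM against 6.53 and 16.9 CPM there, higher by 2.40 ± 0.44 (edgeR adjusted p = 1.21e-05). The exoribonuclease 4 hits Glyma.03G245000 and Glyma.20G228700 rose by 2.97 ± 0.51 and 2.75 ± 0.45. No gene of this list passed between alleles, over cotyledon stages or among the Clark libraries by edgeR on total hits.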

How the data were processed

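The authors deposited raw counts of small RNA hits for 86256 transcript models in 36 libraries, per the file headers split by strand and into total and unique hits, with cDNA lengths. The submitters' processing notes name Bowtie 1 as the aligner. Mismatches, trimming and read sizes were not stated there. A deposited table of CHS counts and of reads per library served to check library names, and CHS7 counts were equal in 36 of 36 libraries. No column of other samples was present (0 unused).

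From these, 1 transcript model per gene was taken, sense and antisense total hits were summed, and CPM was computed over all gene hits. Tests used edgeR 4.0.16 (quasi-likelihood, TMM, filterByExpr at 10 counts and 15 in total; R 4.3.3) with Benjamini-Hochberg adjustment over all genes tested and a threshold of 0.05. DESeq2 1.42.0 was an alternative. The rest used Python 3.11.15 with numpy 2.4.6, pandas 2.3.3, scipy 1.17.1 and matplotlib 3.10.9. The fits were tested on simulated data. Genes were called nearly equal when their absolute count differences, summed over libraries and strands, were at most 5% of the larger total. Library totals ranged widely. Among the 35 libraries other than stage 2, counting precision was lowest in the five-foliate vegetative bud (5.74 M gene hits). It was also low in the 5 to 6 mg seed coats (6.49 to 9.21 M). Counting intervals are exact at 95%.

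The members, the lists and the tests were chosen with earlier results of these data known. Named were the 3 members of each class with the highest mean CPM and called members, up to 8 per direction by size of change. Other genes, the comparison of 5 to 6 with 10 to 25 mg seed coats, and the descriptions of small seed coats and embryo tissues were chosen after values were seen. Richland and T157 share replicate numbers, but same-numbered libraries did not deviate together (correlations -0.215, -0.152 and -0.162), so no block was used in the results. No kit or sequencer batch could be fitted, since the labels do not map them to libraries.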

Additional observations from a re-analysis of the deposited data

Results flagged for a closer look

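Single libraries that lay far from the rest of their group were looked for in 17 quantities over 5 groups of 4 to 9 libraries, 85 looks in all, of which 14 were marked. Chance alone marks about 1 in 20 groups. The gap of the library to its nearest neighbour, relative to the range of the group, was the criterion.

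In Richland 5 to 6 mg seed coat 3, AGO1 Glyma.15G219050 stood at 259.9 CPM (3.25 to 128 in the other I or i-i seed coats) and the Argonaute sum at 326 CPM (97.5 to 195). The Williams 44 seed coat stood above the other i seed coats in DCL4 Glyma.13G156500 at 97.7 CPM (1.97 to 15.5), SGS3 Glyma.04G203600 at 137.3 CPM (2.49 to 27.0), the XS domain sum at 247 CPM (40.9 to 87.5) and the sum of all members at 535 CPM (311 to 364). Of the other i seed coats 3 were of 5 to 6 mg, and the part of seed weight in this was not tested.

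Among Clark buds and tips, the five-foliate 1-month tip stood high in SGS3 Glyma.04G203600 at 47.1 CPM (17.8 to 29.1), the AT1G13790 hit Glyma.15G037800 at 37.2 CPM (4.18 to 19.2) and the XS domain sum at 155 CPM (53.8 to 99.3). The glabrous 1-month tip stood high in RDR1 Glyma.02G086100 at 2.61 CPM (0.117 to 1.12) and the RDR sum at 13.3 CPM (3.22 to 7.64). Clark standard adult tip 2 stood low in DCL1 Glyma.03G262100 at 22.4 CPM (30.8 to 31.5 in the other adult tips) and in the sum of all members at 162 CPM (213 to 219). Among seedling cotyledons, RDR1 Glyma.02G086100 stood at 0.650 CPM at stage 5 (0.116 to 0.251).

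Libraries that entered no test also held hits on the members. Their summed levels were 571 CPM in the dry seed coat, 507 CPM in the immature cotyledon, 844 CPM in the dry cotyledon, 806 and 724 CPM in the embryo axes and 96.0 CPM in the leaf.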

How the results depend on the processing

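Counts of called members on leaving out each library in turn were 0 to 0 for Richland against T157. They were 0 to 1 for Clark buds against adult tips and 0 to 0 for the Clark forms against standard. For I or i-i against i only the i libraries were left out singly (0 to 0). For Williams seed coats against cotyledons only the 3 seed coats were left out in turn (21 to 26). For 5 to 6 against 10 to 25 mg no count is given, since leaving out a 10 to 25 mg library left 1 in that group. Counts without a share of all genes called beside them describe the fits only, not a change of the members. With a replicate block, Richland against T157 gave 0 of 32 members. With stage 2 included the Williams comparison called 13 members and the stage trend 2, and DESeq2 called 6 on the trend. Seed coats against buds and tips gave 17 called members with no low-count filter, 3 in sense hits (23.3% of genes called) and 15 without the 5 to 6 mg seed coats (45.7% of genes called). Leaving these out, also by strand, was chosen after seeing the data. Buds against adult tips gave 1 with DESeq2, 1 in sense hits and 1 in unique hits. Of 693 alternative values for 68 named results, 586 kept their direction and side of the threshold, 34 gained a call, 45 lost one and 28 changed sign.

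Sign changes in the Williams comparison were Glyma.02G086100 (0.61), Glyma.03G262100 (0.41), Glyma.04G067300 (0.24), Glyma.04G203600 (0.35) and Glyma.19G261200 (0.39) without TMM factors, Glyma.02G086100 (0.16) without Williams seed coat 2 (-0.41 to 0.16 on leaving out each, against -0.11 with all), Glyma.04G067300 (0.07) and Glyma.15G037800 (-0.85) in antisense hits, and Glyma.05G035900 (-0.88) in sense hits. In seed coats against buds and tips, Glyma.03G262100 and Glyma.19G261200 went to 0.05 and 0.05 without TMM factors, 0.05 and 0.06 with no filter, 0.18 and 0.19 in antisense hits, 0.70 and 0.75 without the 5 to 6 mg seed coats, 0.71 and 0.72 in antisense hits without them and 0.70 and 0.78 without the 1-month tips. Glyma.15G219050 went to -0.69 without the 5 to 6 mg seed coats (-0.09 in antisense and -1.19 in sense hits) and -0.25 in sense hits of all, and Glyma.04G203600 to -0.04 in sense and -0.02 in unique hits. Glyma.05G035900 went to 3.39 in sense hits for 5 to 6 against 10 to 25 mg. The cause was not tested. Depth limits the low members most: 3 hits are 0.523 CPM in the shallowest of the 35 libraries.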
